A study of Mus musculus with 15 samples.

Results

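The olfactory bulb is the first relay of smell in the brain. Axons of olfactory sensory neurons from the nose enter its glomeruli and excite mitral and tufted cells, which carry the signal on to the cortex. Most bulb neurons are inhibitory granule and periglomerular cells that lack long axons, release GABA and are renewed through life by neuroblasts that migrate in from the subventricular zone. Corticotropin-releasing hormone (CRH) is a peptide best known from the stress axis, and its receptor CRHR1 is also carried by granule cells of the bulb.

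Described here are the bulbs of the reporter controls, 5 of the 15 samples of a study of altered CRH signalling, chosen by their label and not by any measurement. These were CRHR1-Cre mice on C57Bl/6, male and 6 to 8 weeks old, that received 500 nL of an adeno-associated virus (AAV-flex-GFP). A flex virus makes its product, here a green fluorescent protein, only in cells with Cre, so only CRHR1+ granule cells should carry it. Total bulb RNA was taken 2 weeks later, and 100 ng of it was amplified and labelled with Cy3 for a 1-colour Agilent array. The labels call the group pseudo-wild type. All 5 mice carried the Cre driver and the virus, so these levels are those of injected transgenic bulbs, not of untouched tissue. The labels state 5 animals a group, and each array was taken as 1 mouse. Arrays 1 to 3 were on 1 slide and arrays 4 and 5 on another, so slide and mouse cannot be told apart.

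Each array held 59305 spots that were not controls. Between 61.0% and 65.1% of them were well above background, which is the scanner software's own flag, and 0 spots were saturated. A level below is the log2 processed signal of a probe minus the 75th percentile of its array, so a level of 0 is the signal that 3 in 4 spots do not exceed and each unit is a doubling. That percentile lay between 826 and 1034 signal units. Each gene was represented by its brightest probe, and errors are SDs over the 5 arrays. Probes differ in how well they bind, so ranks below order probe signals and not numbers of transcripts. In 6426 genes with at least 2 detected probes the brightest and the dimmest detected probe lay 2.09 apart in the median, against a median SD between arrays of 0.153.

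The male label was met: the Y-linked Ddx3y and Eif2s3y stood at 1.10 ± 0.08 and 1.28 ± 0.22 (SD, n = 5), while Xist, the RNA that silences an X chromosome in females, was flagged on 0 arrays. Of 34810 gene names, 21889 (62.9%) were well above background on all 5 arrays and 9423 on 0. Among the 24192 names with a gene symbol, 16723 (69.1%) were detected on all 5. Detected levels ran from -5.83 to 9.01 with a median of -0.09. The flag was also met by genes known from other organs. It was raised on all 5 arrays for 9 of 16 such genes, among them Nppa, the heart's natriuretic peptide, at 2.91 ± 0.16 and Apoa2, a liver apolipoprotein, at 1.82 ± 0.06. The liver's Alb, the kidney's Umod, the lung's Sftpb and the sperm protein gene Prm1 were flagged on 0 arrays. A flagged probe thus shows signal above the array's background, not that its gene is at work in bulb cells.

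Of the 100 genes of highest signal, with levels from 9.01 down to 7.27, 17 encode cytosolic ribosomal proteins, 5 glycolytic enzymes, 5 tubulins or actins, 5 subunits of nuclear-encoded oxidative phosphorylation, 5 proteins of the mitochondrial genome and 2 calmodulin. A further 16 were genes whose probe holds a stretch of an interspersed repeat, and 10 of these stood in the first 30. Of the 100, 41 were in none of the gene lists and held no such stretch.

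Those repeat-bearing probes are shown because they decide which names head the list. Words of 10 letters shared by the most probes of the 100 were counted, one after the other. The first, AAGACAGCTA, lay in 7 of the 100, and the second, ACAGCCAGGG, in 6. Another of this kind, AATCCCAGCA, lay in 3. By general knowledge of mouse repeats they belong to the B1 and B2 families, short sequences copied many times across the genome and into transcripts; no repeat annotation was used. Capitals mark the word in 30 letters of each probe as printed on the array.
Glrx2: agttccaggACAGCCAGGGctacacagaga
Elk1: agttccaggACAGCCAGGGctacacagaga
Med16: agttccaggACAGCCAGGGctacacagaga
Pirb: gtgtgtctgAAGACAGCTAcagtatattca
Pbld1: gagtgtctgAAGACAGCTAcagtgtaattt
Medag: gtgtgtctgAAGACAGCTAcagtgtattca
Slc10a1: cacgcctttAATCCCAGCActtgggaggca
Exosc2: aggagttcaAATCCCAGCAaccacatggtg
Glrx2, Elk1 and Med16 share all 30 letters shown, although their probes lie on chromosomes 1, X and 10 (mm9).

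The signal of these probes was far from that of other probes for the same gene. Glrx2, which encodes a mitochondrial glutaredoxin, had the highest level of all, 9.01 ± 0.11, and array values of 9.04, 9.19, 8.93, 8.93 and 8.98. The next probe for Glrx2 stood at 1.36. Slc10a1, the bile acid transporter of liver cells, read 8.78 with the probe above and -8.03 with its other one. Pirb, a receptor of immune cells, read 8.40 against -2.30. Of the 16 genes, 15 had another probe, and in 14 of these it was more than 4 units lower, with a median gap of 8.02. Among the other 84 genes of the 100, 47 had another probe and 14 showed such a gap, with a median gap of 0.87. In all, 51 of 55652 probes (0.0916%) hold one of the 3 words; their median level was 4.61, against -4.27 over all probes. The level differed between words and orientations. The 18 probes with AAGACAGCTA had a median of 7.14, and the 4 with its reverse complement -7.01. For ACAGCCAGGG the medians were 3.79 in 13 probes and -2.82 in 10. For AATCCCAGCA they were -1.72 in 20 probes and -6.63 in 15. The words were chosen from the bright probes themselves, so these medians are a description. The levels of those 16 genes are therefore uncertain. So are those of the 14 others with such a gap, among them Ttc38 at 8.46 with its next probe at -0.25.

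**Figure D1:**
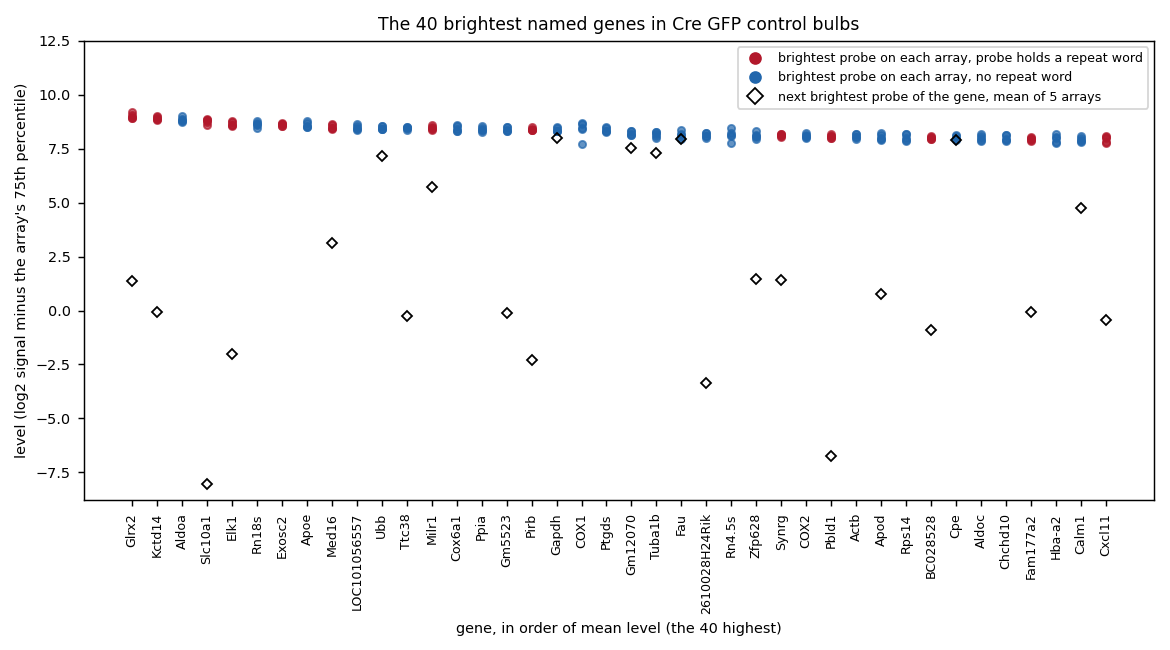
Levels of the 40 brightest named genes on each of the 5 arrays, in order of mean level, on a log2 scale relative to the 75th percentile of each array. Red points are probes with a repeat word and blue points other probes, while open diamonds give the next brightest probe of the gene. Next probes of the red genes lie mostly far below, such as Glrx2 at 1.36 and Slc10a1 at -8.03.

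Without the repeat-bearing probes the list was headed by Aldoa, the glycolytic aldolase, at 8.79, 9.01, 8.80, 8.75 and 8.89 (mean 8.85 ± 0.10). Rn18s, the gene of small-subunit ribosomal RNA, followed at a mean of 8.63. Next was Apoe, the lipid carrier secreted by astrocytes, at 8.54, 8.76, 8.51, 8.51 and 8.70. Array 2 was the highest for Aldoa and Apoe, and the arrays lay close together. Ptgds, which makes prostaglandin D in meninges and oligodendrocytes, stood at 8.37 ± 0.10, the ubiquitin gene Ubb at 8.47 and the cytochrome oxidase subunit Cox6a1 at 8.44 ± 0.14. Gapdh, another glycolytic enzyme, read 8.38 ± 0.09, but 3 probes named for other loci shared a 10-letter word with it (AATACCATCA) and were as bright: LOC101056557 at 8.50, Gm5523 at 8.40 and Gm12070 at 8.23. The Gapdh probe itself was assigned by the array design to chromosome X, and the 6 other probes for Gapdh read 5.39 to 7.98. It and the 3 probes named for other loci may share signal, which was not tested. The same caution holds for Rpl29, whose probe shared another 10-letter word with those of Gm8580 and Gm12508. In all 17 probes hold that word, with levels from -7.97 to 7.63, so the word alone does not show shared signal. COX1 of the mitochondrial genome, at 8.38 ± 0.40, was the least even of the leading genes, with 7.70 on array 5 and 8.41 to 8.71 on the others. The probes for COX2 and COX3 were assigned by the array design to a nuclear locus on chromosome 1.

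Among the whole lists of base functions, all 82 cytosolic ribosomal protein genes were detected, with a median level of 6.48. Of 96 nuclear genes of oxidative phosphorylation 93 were, with a median of 5.50. The 16 glycolytic genes had a median of 6.72 and the 13 genes of the mitochondrial genome 6.72. Synaptic vesicle and SNARE genes, which dock and fuse vesicles, were detected in 17 of 18 cases with a median of 5.38, led by the calcium sensor Syt1 at 7.18 ± 0.13. Syt2, a related sensor, was flagged on 0 arrays. Over all names the share detected was 62.9% and the median level -3.14.

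All markers listed for the bulb's own neurons were detected, against 69.1% of all named genes. The lists were chosen with earlier results of these data known, so their full detection is a description. The list of granule and other GABAergic interneurons was detected in 18 of 18 genes and had the highest median of any cell type, 4.34, against -1.66 over all named genes. Slc32a1, which loads GABA into vesicles, read 7.18, 7.46, 7.27, 7.27 and 7.48 on the 5 arrays, 90th among all named genes; its second probe stood at 1.07. Gad1, which makes GABA, read 6.12, 6.06, 5.81, 5.96 and 5.99, and its sister enzyme Gad2 4.58 ± 0.11. The transcription factor Meis2 stood at 5.53 ± 0.11, and Synpr, a vesicle protein of granule cells, at 5.60 ± 0.08. The arrays lay close together for these genes, although array 1 stood below the others for Synpr, at 5.46 against at least 5.60. Dlx6 had the lowest level of the list, -0.92 ± 0.21.

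Dopaminergic periglomerular cells were represented by 8 of 8 genes. Th, the rate-limiting enzyme of dopamine synthesis, read 6.60, 6.82, 6.60, 6.77 and 7.02, 195th among named genes. The dopamine transporter Slc6a3 stood at 1.80 ± 0.18, Nr4a2, a transcription factor of dopamine neurons, at 2.35 ± 0.12 and Ddc, the next enzyme after Th, at 1.29 ± 0.14. The mitral and tufted cell list was detected in 11 of 11 genes with a median of 2.52. Its members Doc2g, Cdhr1 and Lbhd2 read 5.94 ± 0.08, 5.38 ± 0.12 and 4.57 ± 0.10, and the transcription factors Eomes and Tbx21 3.28 ± 0.18 and 2.52 ± 0.16. Doc2g was between 5.80 and 6.01 on every array.

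Genes of olfactory sensory neurons were also detected, although their cell bodies lie in the nose and only axons enter the bulb. All 12 genes of that list were detected. Omp, the olfactory marker protein, read 6.44, 6.45, 6.42, 6.53 and 6.58, and Gng13, a G protein subunit of sensory transduction, 5.96 ± 0.21. The adenylyl cyclase Adcy3 (-0.89 ± 0.12) and the receptor chaperones Rtp1 (-4.95 ± 0.09) and Rtp2 (-2.29 ± 0.05) were detected too. Omp had an SD of 0.07 between mice. The median SD was 0.116 in the brightest of 4 equal bins of detected genes, ordered by level. The median SD of the sensory axon list was 0.163, against 0.153 over all detected genes, so Omp does not stand for the list. In such bulk tissue, fewer cells of a type and less RNA per cell cannot be told apart.

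The glial lists were complete as well. Astrocyte genes were detected in 13 of 13 cases with a median of 3.25, led by Aldoc at 8.00 ± 0.12, Mlc1 at 5.59 ± 0.13 and the glutamine synthetase Glul at 5.56 ± 0.10. The 10 ensheathing glia genes, for the cells that wrap the sensory axons, included Fabp7 at 6.47 ± 0.20 and Npy at 4.88 ± 0.13; both are also made by other bulb cells. Oligodendrocytes were detected in 15 of 15 genes, among them Mag, a myelin adhesion protein, at 4.26 ± 0.13, and their precursors in 9 of 9. All 16 microglial genes were detected, with a median of 2.66, led by Siglech at 5.56 ± 0.29 and Csf1r at 5.06 ± 0.12, the receptor that keeps microglia alive. The vessel lists (14 of 14 endothelial, 10 of 10 mural) were led by the tight junction gene Cldn5 at 4.50 ± 0.12 and by Vtn at 5.20 ± 0.13.

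Many markers of bordering tissue and of blood were detected too. The same flag was met by 69.1% of all named genes and by 9 of 16 genes of other organs. Detection alone thus does not show that these tissues were present. The 10 meningeal genes were all detected (median 2.20), among them Dcn at 4.44 ± 0.25 and the GABA transporter Slc6a13 at 3.13 ± 0.27. Red cell globins were bright, Hba-a2 at 7.94 ± 0.17 and Hba-a1 at 6.65 ± 0.19; near-identical globin copies may share signal. Cortical and anterior olfactory markers had a median of -2.89 and 7 of 8 were detected, with Rprm at 3.57 ± 0.30 and Neurod2 at -0.12 ± 0.23. The 6 striatal genes had a median of -1.55. Choroid plexus genes were detected in 8 of 9 cases with a median of -2.31, neutrophil genes in 5 of 6 with -2.80, and T cell genes in 5 of 10 with -4.21; Cd8a was on 0 arrays. What part these cells had in any level here was not tested.

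**Figure D2:**
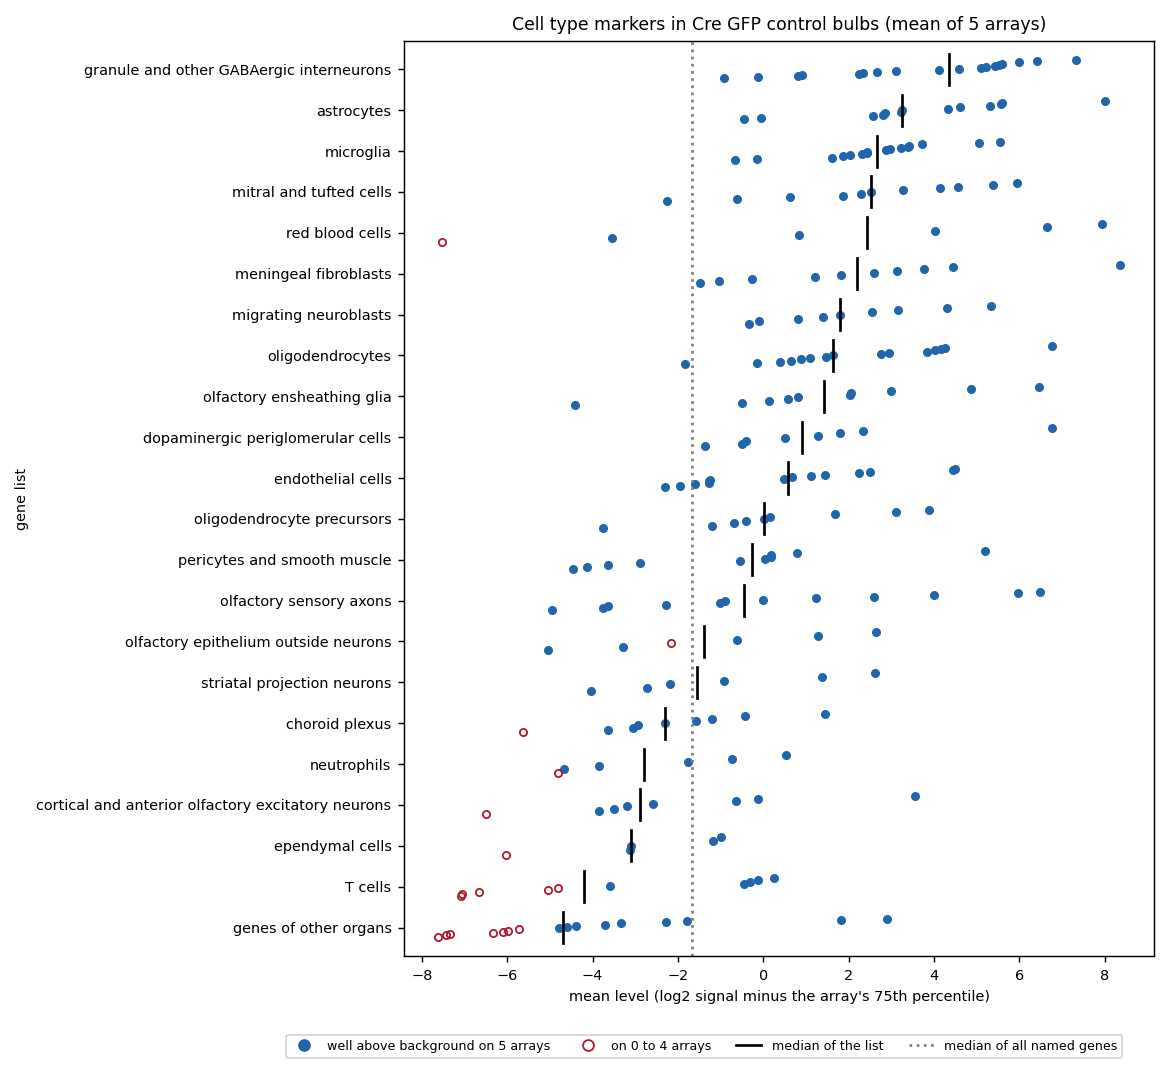
Mean level of each marker gene over the 5 arrays (horizontal axis, log2 relative to the 75th percentile of each array), by cell type list (vertical axis), with the list's median as a black bar and the median of all named genes (-1.66) as a dotted line. Filled points were well above background on all 5 arrays. GABAergic interneurons lie farthest right (median 4.34) and genes of other organs farthest left (-4.70).

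The medians of the transmitter lists ran from 4.43 for GABA synthesis and transport down to -4.18 for serotonin. The counts of detected genes that follow are to be read beside the 69.1% detected among all named genes. All 8 genes for GABA synthesis and transport were detected, among them Abat, which breaks GABA down, at 5.51 ± 0.07. Of 21 GABA receptor genes 17 were detected. They were led by Gabrb2 at 4.60 ± 0.17, the GABA-B receptor Gabbr1 at 4.36 ± 0.12, Gabrd, the subunit of tonic inhibition, at 4.17 ± 0.13, and Gabra3 at 3.83 ± 0.15. Gabra6, known from cerebellar granule cells, and Gabrp were flagged on 0 arrays. Gabrr3 was flagged on array 4 alone, at -1.17, against -7.56, -8.10, -7.80 and -8.22. For glycine, the carrier Slc6a9 of glia stood at 5.73 ± 0.08 and Slc6a5, the carrier of glycine neurons, was on 0 arrays. Glra3 likewise was flagged only on array 4, at -2.12, with -6.52 or below on the others.

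Glutamate was represented by 9 of 9 transport genes and 17 of 18 ionotropic receptor genes. The vesicular carriers Slc17a7 and Slc17a6 read 2.28 ± 0.09 and 0.64 ± 0.20. Grin1, the obligatory NMDA receptor subunit, read 3.82, 3.50, 3.41, 3.52 and 3.46, with array 1 above the other 4. Gria4 stood at 3.41 ± 0.12 and Grin2c at 3.27 ± 0.06. Of 8 metabotropic receptors 7 were detected, led by Grm5 at 3.01 ± 0.18; Grm6, known from retinal bipolar cells, was on 0 arrays.

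Noradrenaline, serotonin and acetylcholine reach the bulb mainly through fibres from other brain regions. For noradrenaline 11 of 12 genes were detected, led by the receptors Adra2c (2.43 ± 0.13) and Adra2a (1.88 ± 0.18). The synthesis genes Dbh and Pnmt were among the 11, and only the noradrenaline carrier Slc6a2 was on 0 arrays. For serotonin 11 of 17 genes were detected (64.7%), led by Htr7 at 1.21 ± 0.12 and Htr3a at -0.13 ± 0.20. Tph2, the neuronal synthesis enzyme, was flagged on 1 array. For acetylcholine 12 of 18 were detected (66.7%). Both shares were near the 69.1% of all named genes. The muscarinic receptor Chrm1 stood at 1.08 ± 0.15 and the nicotinic subunit Chrnb2 at 1.18 ± 0.06. Chat, which makes acetylcholine, was flagged on 0 arrays. The dopamine receptors Drd1 and Drd2 read -2.72 ± 0.12 and -4.04 ± 0.20. The histamine receptor Hrh3 stood at 2.63 ± 0.14. Mgll, which breaks down endocannabinoids, read 4.61 ± 0.09 and their receptor Cnr1 1.63 ± 0.18.

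Of 29 neuropeptide precursors 22 were detected (75.9%, near the 69.1% of all named genes), and 4 of them stood above 5. Cck, the cholecystokinin precursor known from tufted cells, read 7.18, 7.53, 7.41, 7.31 and 7.59. Nmb (neuromedin B) followed at 5.79, 6.12, 6.13, 6.01 and 6.34. Penk, the enkephalin precursor, read 6.24 on array 2 and between 5.90 and 5.95 on the others, and Trh (thyrotropin-releasing hormone) stood at 5.18 ± 0.29. Of the rest, 5 were flagged on some arrays only, among them Avp on 4, at -4.66 ± 1.00, and 2 on 0 arrays, among them Pmch. Of 37 peptide receptors 27 were detected (73.0%, again near that share). They were led by Ntsr2 at 4.88 ± 0.13, Adcyap1r1 at 4.07 ± 0.09, the opioid receptor Oprm1 at 3.77 ± 0.27 and Crhr1. The cholecystokinin receptor Cckbr stood at 3.38 ± 0.06.

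**Figure D3:**
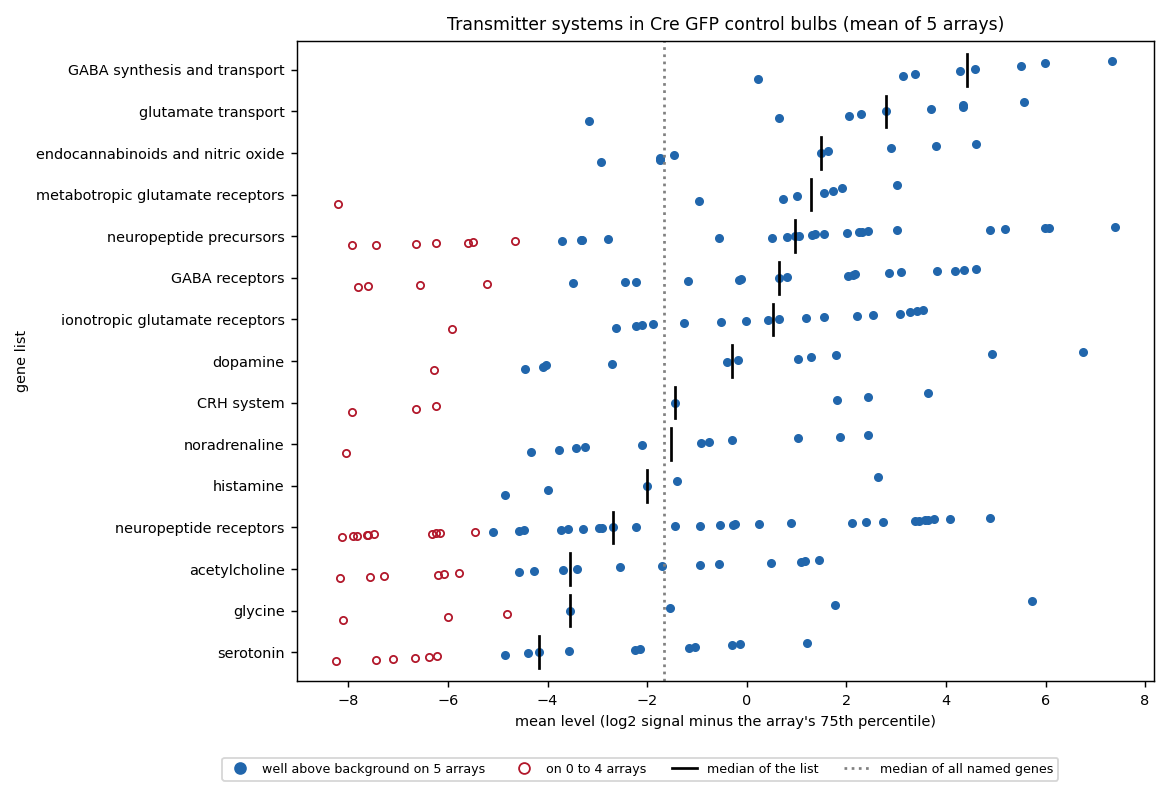
Mean level of each gene of the transmitter lists over the 5 arrays (horizontal axis, log2 relative to the 75th percentile of each array), by list, with medians as black bars. Filled points were well above background on all 5 arrays. GABA synthesis and transport has the highest median (4.43), and serotonin the lowest (-4.18).

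In the CRH system, the ligand, its binding protein and both receptors were detected on all 5 arrays, and the urocortins were not. Crhr1 (probe at chr11:104036691-104036750, mm9) read 3.86, 3.79, 3.52, 3.52 and 3.48, a mean of 3.63 ± 0.18; its dimmer second probe stood at 0.14. Arrays 1 and 2 were the highest. Crh (chr3:19593482-19593541) read 2.02, 2.03, 2.68, 2.57 and 2.87, a mean of 2.43 ± 0.39, with arrays 1 and 2 the lowest. Crhbp (chr13:96201903-96201962), which binds and buffers CRH, read 1.49, 1.45, 2.12, 2.10 and 1.91, again lowest on arrays 1 and 2. Crhr2 (chr6:55040043-55040102), the receptor preferred by urocortins, read -0.91, -1.11, -1.78, -1.77 and -1.68, highest on arrays 1 and 2. The ligand and its binding protein were thus lowest in the same 2 bulbs in which both receptors were highest, and the 2 slides did not divide them that way. Ucn and Ucn2 were flagged on 2 arrays each and Ucn3 on 0. These 5 bulbs are too few for a correlation, and none was computed.

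The 5 arrays were close to each other as a whole. Over the 21889 detected genes the SD had a median of 0.153 and lay between 0.056 and 0.502 in the middle 90%. Ordered by level and cut into 4 equal bins, genes had a median SD of 0.268 in the dimmest bin and 0.116 in the brightest. In 306 detected probes printed 5 or more times, copies within an array differed by an SD of 0.0527 and the arrays by 0.123. Correlations between arrays ran from 0.989 (1 and 5) to 0.996 (3 and 4), over genes, which are not independent. The first principal component of the gene-centred levels held 43.4% of the variance and set array 1 (score 0.24) against array 5 (-0.23), and the second, with 28.9%, set array 2 (0.19) against array 4 (-0.17). Array 1 was the lowest of the 5 for 33.1% of detected genes and array 5 the highest for 28.1%.

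Few genes differed between the slides. In limma, with slide as the only term and Benjamini-Hochberg adjustment over 22557 genes, 1 gene differed between the slides (0.00443%), and 793 (3.52%) had an unadjusted p under 0.05. That 1 was a long noncoding RNA named on the array for its region, chr3:19179899-19216399 (mm9), forward strand. Its brightest probe (chr3:19204622-19204681) read 1.49, 1.64 and 1.56 on slide 1 and -2.07 and -2.22 on slide 2, a difference of -3.71 ± 0.115 (SE; limma adjusted p = 0.00307). The groups were far apart with almost no spread within them. Its other 5 probes did not share this: their SDs over the 5 arrays were 0.10 to 0.75, and the probe at chr3:19204692-19204751, next to it, read -4.92, -5.03, -5.34, -5.07 and -5.74. The call rests on 1 probe, and it was lost without array 1, 2 or 3 (0 genes called each), while 13 genes were called without array 4 and 12 without array 5.

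Some gene groups varied together between bulbs. Migrating neuroblast genes were highest on array 5 in 7 of 9 cases and lowest on array 1 in 6, with array means of 1.68, 1.91, 2.29, 2.26 and 2.39. Dcx, the microtubule protein of migrating neurons, read 2.91, 2.86, 3.29, 3.36 and 3.40. Prokr2, the receptor that guides neuroblasts into the bulb, read -1.18, -0.31, 0.45, 0.30 and 0.30. Oligodendrocyte genes were highest on array 5 in 13 of 15 cases, with means of 1.98, 2.03, 2.20, 2.30 and 2.47, and Gpr17, a receptor of their maturing precursors, read 3.30, 3.43, 4.27, 4.22 and 4.16. Both lists were low on arrays 1 and 2. Over all detected genes array 5 was highest for 28.1%, array 1 was lowest for 33.1% and the array means differed by at most 0.04. With arrays centred on their median, array 1 moved by -0.14 against the mean of the arrays; the highest array named here and below for each list stayed the same under all 5 other scalings except where stated.

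Microglial genes ran the other way. They were highest on array 2 in 12 of 16 cases and lowest on array 3 in 11, with means of 2.79, 2.91, 2.43, 2.51 and 2.54; array 2 was highest for 24.8% of all detected genes and array 3 lowest for 16.2%. Trem2, a receptor of microglia, read 2.68, 2.87, 2.01, 2.37 and 2.18. Endothelial genes were lowest on array 3 in 10 of 14 cases, and Ly6c1 read 4.93, 4.82, 4.02, 4.31 and 4.20. The somatostatin receptor Sstr3 showed a wide gap of the same form, with 2.98 and 3.21 on arrays 1 and 2 and 1.80 to 2.10 on the others. Ribosomal protein genes were highest on array 2 in 70 of 82 cases. Genes of GABAergic interneurons were lowest on array 1 in 13 of 18 cases and highest on array 5 in 12, and their array means ran from 3.59 to 3.78. That range of 0.19 depended on the scaling. It became 0.43 with arrays centred on their median and 0.42 with the authors' series values. Under median centring all detected genes together ranged over 0.21, also lowest on array 1 and highest on array 5. The interneuron range was 0.20 with normexp, 0.11 with a percentile over detected probes only and 0.08 with quantile normalization. The microglial range stayed between 0.44 and 0.48 under all of these scalings. The means of the sensory axon list ran from 0.23 to 0.37 and those of astrocytes from 3.59 to 3.80.

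Immediate early genes, which neurons switch on within minutes of activity, were highest on array 3 in 14 of 16 cases, with means of 0.36, 0.52, 1.17, 0.85 and 0.76; array 3 was highest for 12.2% of all detected genes. Fos read -1.34, -0.87, 0.41, 0.03 and -0.24, and Egr1 1.76, 2.26, 3.19, 2.95 and 2.78. Arrays 1 and 2 were the lowest for both. Interferon response genes, part of antiviral defence, had the widest spread of the lists with more than 5 detected genes named here, with means of -0.03, 0.63, 0.72, -0.40 and -0.49. Arrays 2 or 3 were highest in 18 of 19 of them, against 24.8% of all detected genes for array 2 and 12.2% for array 3. The chemokine Cxcl10 read -1.01, -0.31, 0.51, -2.67 and -2.64, Isg15 2.16, 2.96, 3.57, 2.11 and 1.96, and Oasl2 -0.13, 0.83, 1.66, -0.57 and -0.89. All 5 of these bulbs had received virus. B2m, which carries MHC class I to the surface, stood apart on array 2, at 3.74 against 2.67 to 2.86, and Cxcl9 did too, at -1.31 against -5.11 or below. T cell genes were also highest there, at a mean of -0.56 against -0.99 to -0.82, with Cd3d at -2.88 against -4.85 or below, but with the authors' series values, which held 4 of those 5 genes, array 5 was highest. Neutrophil genes were highest on array 5 in 5 of 5 detected cases, with a mean of -1.18 against -2.74 to -2.04. The part of infiltrating cells in these levels was not tested.

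**Figure D4:**
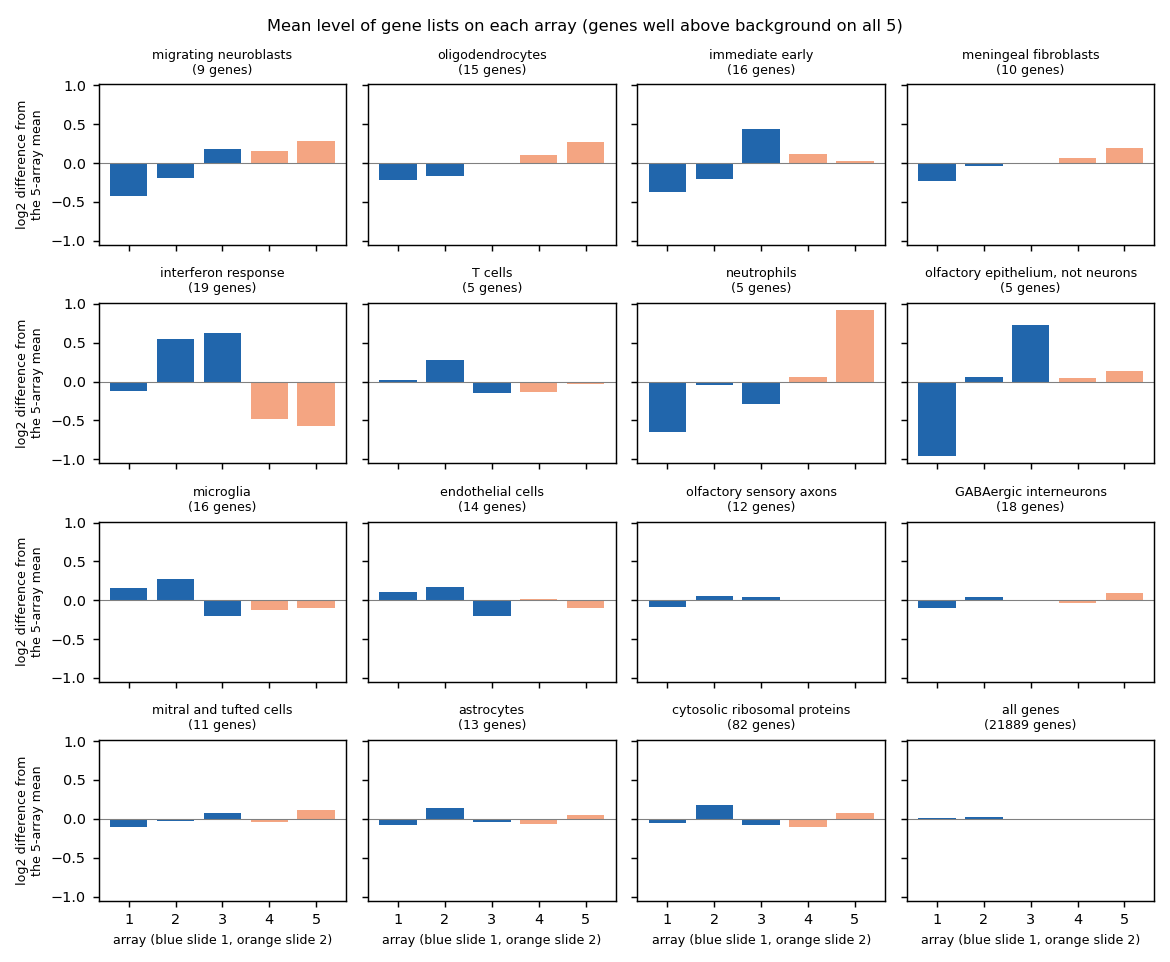
Mean level of 16 gene lists on each array (horizontal axis) as the log2 difference from the mean of the 5 arrays (vertical axis), over members well above background on all 5; arrays 1 to 3 (blue) are slide 1 and arrays 4 and 5 (orange) slide 2. Interferon response, neutrophil and olfactory epithelium lists span more than 1 unit, while all genes together span 0.04.

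The largest spreads of single genes were of 2 kinds. In the first, genes known from nasal mucosa and its glands, a group put together after their values were seen, were low on array 1 and high on array 3. Cyp2a4, a cytochrome P450, had the largest SD of all detected named genes, 2.72, with -4.81, 0.46, 2.31, 0.39 and 0.90. Scgb1c1, a secretoglobin, read -3.73, 0.22, 1.82, 0.07 and 1.01, and the secreted proteins Bpifb3, Bpifb4 and Bpifb6 -3.57, -3.81 and -4.33 on array 1 with -0.87 to 1.47 on the rest. Cyp2g1, the cytochrome P450 of olfactory mucosa, read -7.24, -1.84, 0.12, -0.76 and -1.06 and was flagged on 4 arrays, and Ugt2a1, which clears odorants, read -5.69, -3.33, -1.56, -2.97 and -2.84. In the sensory axon list, Omp read 6.42 to 6.58, while Gap43 and Gnal were low on array 1 (3.71 and 2.32, against at least 4.02 and 2.62 elsewhere). Of its 12 detected genes, 5 were highest on array 3, against 12.2% of all detected genes. Array 1 was lowest for 4 of the 12 and array 5 for 4, against 33.1% and 18.5% of all detected genes. Bpifb9b was highest on array 3 too (1.89), but lowest on array 4 (-5.07).

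In the second kind, 1 or 2 arrays lay several units from the rest in a gene with no list in common. Rint1 read -4.81 on array 4 and -0.26 to 0.81 elsewhere. Tmc7 read -4.49 and Eps8l1 -4.57 on the same array, against -0.34 to 0.79 and -1.27 to -0.22. Gdpd3 was the reverse, with 1.80 on array 4 and -4.61 to -2.31 on the others. Zfp438 and C1rl were high on array 5 alone, at -0.26 and -0.11 against at most -4.11 and -3.53. BC023969 read -4.69 and -4.32 on arrays 2 and 5 and -0.35, -0.25 and 0.73 on the others, and Tescl -5.44 and -4.88 on the same 2 arrays against -1.95 to -1.60. Gm5801 followed the slides, with -0.01, 1.32 and 0.39 against -4.16 and -3.94. Lcn2, an iron-binding protein of acute inflammation, read 2.56 on array 1 and -1.80 to -0.62 elsewhere. In all, 94 detected genes had an SD above 1 and 1111 (5.08%) above 0.5.

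**Figure D5:**
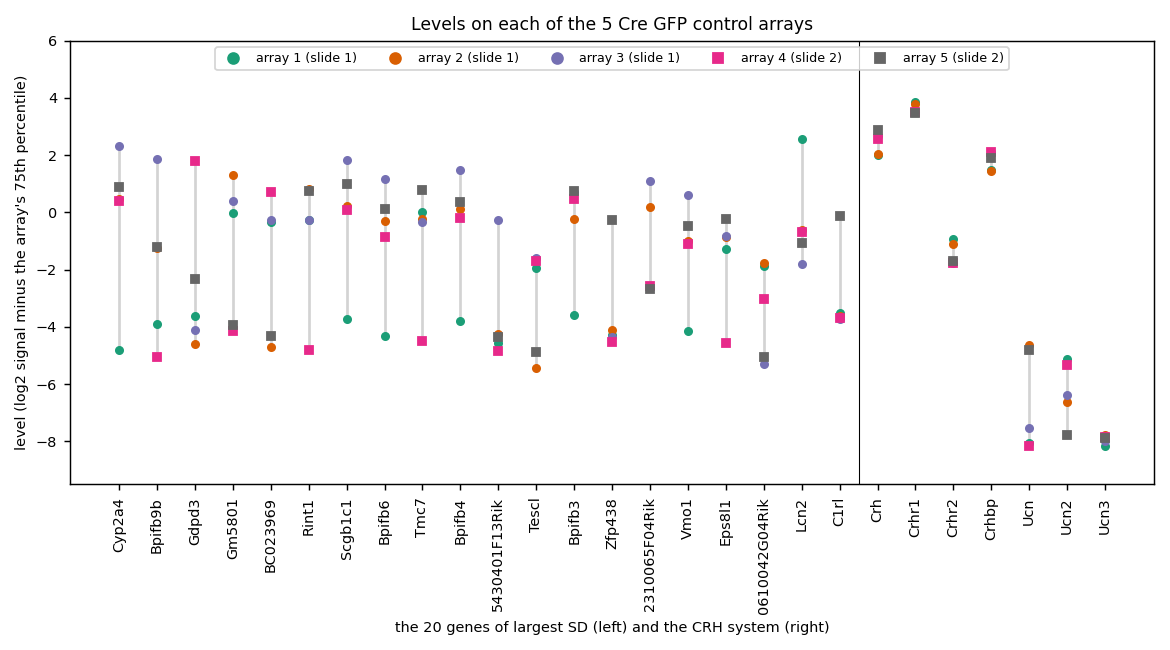
Levels on each of the 5 arrays (log2 relative to the 75th percentile of each array) of the 20 named genes of largest SD, left of the line, and of the CRH system, right of it; circles are slide 1 and squares slide 2. Cyp2a4, Scgb1c1 and Bpifb3 are lowest on array 1, Rint1, Tmc7 and Eps8l1 on array 4, and the CRH genes lie within 1 unit except for Ucn and Ucn2.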

How the data were processed

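Total bulb RNA of 5 samples was measured on 1-colour Agilent arrays, 1 array per sample, and each sample was taken as 1 mouse. Per the file headers, the authors extracted each array's intensity with Agilent Feature Extraction 10.7.3.1, which subtracted background and removed spatial trends within the array; coordinates are mm9. The deposited series values are a linear ratio of that signal to a constant of each array, as found by comparing both, and served as an alternative after log2; 10 of its columns belong to other groups and were not used. From the deposited intensity, log2 levels were formed by taking off the array's 75th percentile, control and outlier spots were left out, spots of a probe were averaged, and the brightest probe stood for a gene name. Of 55681 probes, 27592 were named through RefSeq accessions, 3498 by symbol and 393 by synonym, and 24198 kept the file's name.

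A gene counted as detected where the software's flag was set on all 5 arrays. Slides were compared with limma 3.58.1 in R 4.3.3 (lmFit, eBayes, Benjamini-Hochberg, adjusted p under 0.05) over genes flagged on at least 4 arrays; the test was tried on simulated data. No study groups were compared. Precision is limited by 5 arrays. All 5 arrays were scanned on the same day, and the spread between them may be partly technical. Genes named are the 30 brightest, 4 per list, undetected defining markers, all members of lists of up to 8, the CRH system and the 20 of largest SD; the members and lists were chosen with earlier results of these data known, and any other gene named was chosen after its values were seen. Alternatives were other centrings, quantile and normexp normalization, the authors' values, other probe rules and filters, and leaving out each array. Leaving out repeat-bearing probes was added after seeing the data. The exon, intron or UTR position of probes was not analysed here. A few list members are not reported here.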

Additional observations from a re-analysis of the deposited data

Results flagged for a closer look

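In 23 of 246 named genes 1 array lay far outside the other 4, by Dixon's ratio above 0.71; chance flags about 1 in 20. The 246 include the 20 genes named for their largest SD, which hold 9 of the 23; without them it was 14 of 226. None of the 48 lists did. Array 1 was low for Synpr (5.46), Gap43 (3.71), Gnal (2.32), Dcn (4.00), Cyp2g1 (-7.24), Cyp2a4 (-4.81) and Bpifb3 (-3.57), and high for Grin1 (3.82), Adra1d (0.15) and Lcn2 (2.56). Array 2 was high for S100b (5.56), Penk (6.24) and B2m (3.74) and low for Hrh4 (-5.65). Array 3 was high for 5430401F13Rik (-0.26). Array 4 was low for Neurod2 (-0.51), Rint1 (-4.81), Tmc7 (-4.49) and Eps8l1 (-4.57) and high for Matn2 (2.29). Array 5 was high for Zfp438 (-0.26) and C1rl (-0.11) and low for Glra1 (-6.39).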

How the results depend on the processing

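No paired analysis was possible because only 1 group of the study was used. Without 1 array in turn, between 21913 and 22102 genes were well above background on all remaining arrays, a looser demand than all 5. With the mean over probes, 20812 were so on all 5 arrays. The median SD lay between 0.115 (within slide 2) and 0.193 (median centring). Of the 100 brightest genes, 58 stayed with the mean over probes, 54 with the dimmest probe, 67 with the authors' series values and 90 with normexp. The authors' series values lacked some probes: 19768 genes counted as detected with them, against 21889 in the main setting. Median centring kept all 100. When repeat-bearing probes were left out, as added after seeing the data, 84 stayed, and 98 to 100 stayed without 1 array. The slide test called 4 genes with median centring, 4 with the authors' values, 2 without the filter on dim probes and 2 with an intensity trend in limma, and 0 to 13 without 1 array; the 0 calls, without array 1, 2 or 3, went with 604, 605 and 1664 genes at an unadjusted p under 0.05. The cause was not tested. Dim genes carry only a bound.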
